A study of Tachysurus fulvidraco x Tachysurus vachelli with 6 samples.

Results

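NLR-like genes encode intracellular sensors, and 2 of them, LOC113636435 and LOC113635287, moved in opposite directions in catfish skin after 16 h of simulated transport. By the descriptions in the table, LOC113636435 is NLRP12-like (with NACHT, LRR and PYD domains) and LOC113635287 is NLRC3-like (of the NLR family with a CARD domain). They are 2 of the 2451 genes with complete values, and 2 of the 1620 tested genes, those with a mean FPKM of at least 0.5 (a level per length of transcript and depth of the library). Both were chosen by their counts and FPKM in these same libraries, that is, by the difference between the groups compared here, so their levels and fold changes are given as a description and no test is given for them. The family around them holds 12 further genes whose description names NLRC3 or NACHT, LRR and PYD domains.

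The samples were left-side skin of juvenile hybrid yellow catfish (Tachysurus fulvidraco female × P. vachellii male), taken behind the dorsal fin. The 3 control libraries came from untreated fish kept in the rearing system, and the 3 transport libraries from fish shaken for 16 h in sealed, oxygen-filled bags after a fast. The study calls them biological replicates, but the labels and methods do not say if a library held 1 fish or several, so the errors below describe the spread between these libraries. The fish are hybrids, the reads were assigned to genes named after 1 parent species, and reads from the 2 parental copies of a gene cannot be told apart in these values.

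NLR proteins are cytosolic pattern recognition receptors built from a central NACHT domain, which binds nucleotide, and leucine-rich repeats, with a signalling domain such as PYD or CARD at the front. Some members assemble inflammasomes that activate caspases and mature interleukin-1 beta, and NOD1 and NOD2 signal through the kinase RIPK2 to NF-kB. In mammals, NLRP12 and NLRC3 are known mainly as members that restrain inflammatory signalling, whereas bony fishes carry large expanded sets of NLRC3-like genes whose individual roles are mostly unknown. Skin is a first barrier of fish, and its epithelial and immune cells both express such receptors.

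The table covers a part of the transcriptome, and its counts totalled between 3632651 and 4487002 in a library, which is 12.03% to 12.46% of the reads mapped. Scaling factors (TMM) ran from 0.712 in control 1 to 1.17 in transport 1, and they lowered the median log2 fold change over all genes by 0.30 against mapped reads alone. A log2 fold change is therefore given on the TMM scale, from edgeR, while FPKM values carry no such factor. Every control had a smaller factor (at most 1.04) than every transport library (at least 1.05). FPKM values after transport are thus shifted upward relative to the TMM scale. With that test 10 of 1620 genes, or 0.617%, had an adjusted p under 0.05 (0.37% higher and 0.247% lower after transport), and 273, or 16.9%, had an unadjusted p under 0.05. The FPKM of every transport library lay above that of every control library in 24.1% of the tested genes and below it in 3.7%, or in 27.8% for either direction. These shares, used below, are on the FPKM scale and so include that shift. Of the skin markers, envoplakin (evpl) is known in mammals as a protein of the cornified layer of keratinocytes. It was at 3.93, 11.9 and 19.7 FPKM in controls and at 47.7, 30.4 and 41.7 FPKM after transport. Of the leukocyte markers looked for, the table held only spi1 and pax5. The level of spi1 was 5.40 to 9.06 FPKM in controls and 7.77 to 12.2 FPKM after transport, and pax5 was too low to test. Leukocyte genes outside that list were not used as markers. In bulk skin, fewer cells of a type and less RNA per cell cannot be told apart.

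LOC113636435 had the most RNA per length of the 14 family genes in all 6 libraries. It lies on the minus strand of scaffold NW_020848204.1 from 172631 to 280828, a span of 108198 bases, with 5 transcript records of which 4 are coding. Its level was 21.7, 34.7 and 34.3 FPKM in controls 1, 2 and 3 and 17.4, 15.5 and 18.1 FPKM in transport 1, 2 and 3. The groups did not overlap, as in 3.7% of the tested genes for this direction, and the gap between control 1 and transport 3 was smaller than the gap between control 1 and the other controls. Mean levels were 30.3 ± 7.38 FPKM in controls and 17.0 ± 1.34 FPKM after transport (SD, n = 3 each).

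In reads, LOC113636435 had 7411, 9501 and 10213 counts in controls and 4872, 4733 and 6059 counts after transport, so counting error was small beside the difference. As CPM (counts relative to mapped reads and TMM factors) these were 291, 327 and 299 in controls and 138, 134 and 148 after transport. The low FPKM of control 1, the library with the smallest scaling factor, was thus no longer low on the TMM scale. The log2 fold change was -1.12 with a standard error of 0.13, which is 2.18-fold lower after transport. Without TMM factors the log2 fold change was -0.83. Of all tested genes, 6.42% had a lower log2 fold change. The spread of LOC113636435 within groups was an SD of 0.0820 on the log2 CPM scale, against a median of 0.313 over all tested genes, and 3.15% of them varied less. Among all tested genes its FPKM stood at percentile 89.3 to 91.4 in controls and at percentile 79.1 to 80.7 after transport, so it stayed one of the more abundant of these transcripts.

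LOC113635287 moved the other way from a much lower level. It lies on the plus strand of scaffold NW_020848189.1 from 87988 to 124859, a span of 36872 bases, with 4 coding transcript records. Its level was 0.436, 0.614 and 0.825 FPKM in controls 1, 2 and 3 and 2.88, 1.31 and 2.41 FPKM in transport 1, 2 and 3. Every transport library was above every control, as in 24.1% of the tested genes, with transport 2 the nearest to them. Mean levels were 0.625 ± 0.195 FPKM in controls and 2.20 ± 0.805 FPKM after transport (SD, n = 3 each).

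The counts behind LOC113635287 were 86, 97 and 143 in controls and 464, 231 and 466 after transport. On the TMM scale they came to 3.38, 3.34 and 4.19 CPM in controls and 13.1, 6.56 and 11.4 CPM after transport. Its log2 fold change was 1.51 with a standard error of 0.34, which is 2.85-fold higher after transport, and 2.1% of all tested genes had a higher one. Without transport 2 the log2 fold change was 1.76, and without transport 1 it was 1.31. The within-group SD was 0.396 on the log2 CPM scale, and 60.1% of tested genes varied less. A choice by the difference between groups can favour a small spread, so the narrow spread of LOC113636435 on that scale is a description too. Its percentile among tested genes by FPKM was 6.05 to 9.63 in controls and 14.8 to 29.3 after transport.

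**Figure D1:**
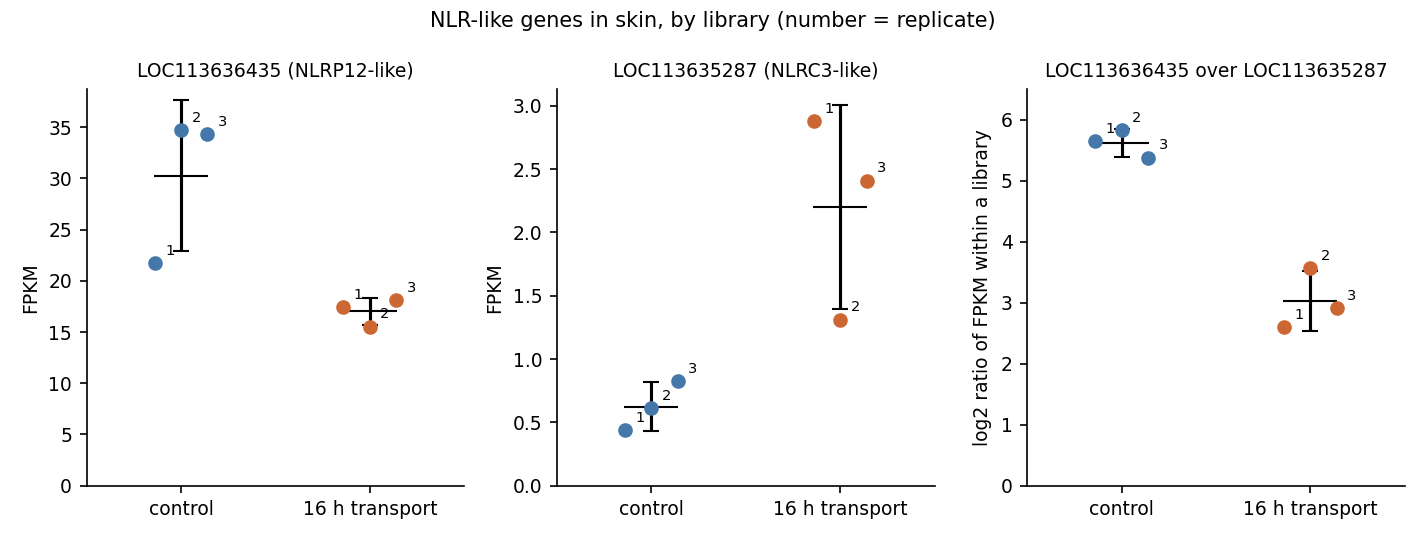
FPKM of LOC113636435 (left) and LOC113635287 (middle), and the log2 ratio of their FPKM within each library (right), in 3 control and 3 transport libraries; points are libraries numbered by replicate, and the bar and whiskers are mean ± SD. LOC113636435 falls from a mean of 30.3 to 17.0 FPKM and LOC113635287 rises from 0.625 to 2.20 FPKM, with no overlap between groups in any panel.

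The ratio of the 2 genes within a library does not depend on scaling between libraries. LOC113636435 had 49.9, 56.6 and 41.6 times the FPKM of LOC113635287 in controls 1, 2 and 3, and 6.06, 11.8 and 7.52 times in transport 1, 2 and 3. On the log2 scale the ratio was 5.61 ± 0.22 in controls and 3.03 ± 0.49 after transport (SD, n = 3 each), a difference of -2.59. The groups stood apart on this ratio, as the choice of the genes made them, while LOC113636435 remained the more abundant of the pair per length in every library. For each gene the reads behind 1 FPKM, relative to the library, lay within 0.998 to 1.006 of their typical value in every library, so counts and FPKM carry the same information here and a shift between its transcripts could not be read from them.

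The 2 genes share the KEGG orthology entry K20865. LOC113636435 ranked first of the 14 family genes by FPKM in each library. It held 56.1%, 50.2% and 50.7% of their summed FPKM in controls and 31.0%, 38.9% and 35.7% after transport. LOC113635287 ranked 9, 10 and 9 in controls and 6, 7 and 6 after transport, with its share of the summed FPKM going from 1.08% ± 0.171 to 4.38% ± 0.963 (SD, n = 3 each).

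**Figure D2:**
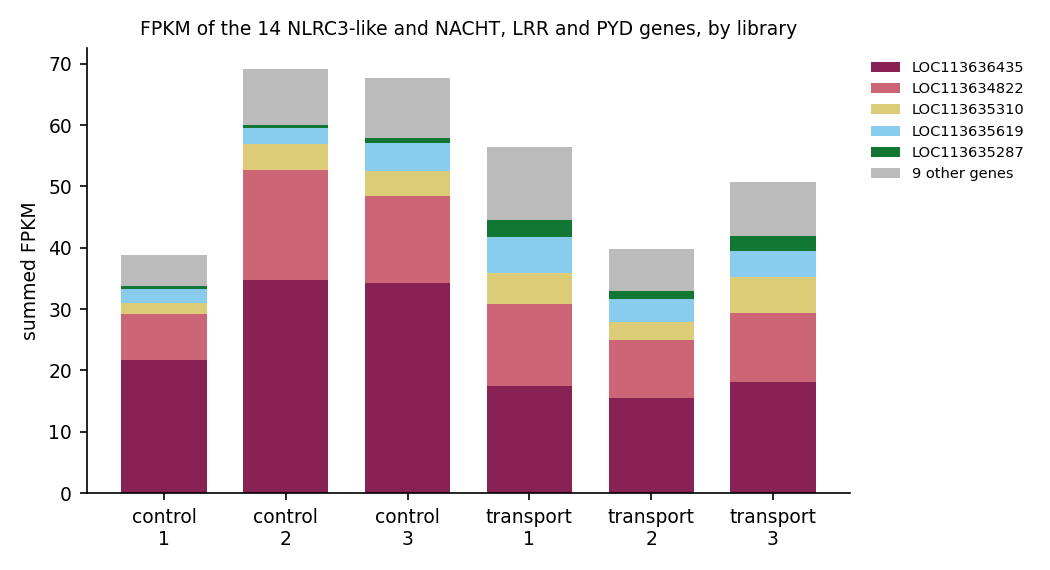
Summed FPKM of the 14 NLRC3-like and NACHT, LRR and PYD genes in each library, stacked by gene with 9 of them pooled in grey. LOC113636435 makes up 50.2% to 56.1% of the bar in controls and 31.0% to 38.9% after transport, and LOC113635287 at most 1.22% in controls and at least 3.29% after transport.

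The 12 other family genes together did not separate the groups by FPKM, a scale shifted upward after transport relative to the TMM scale. Their summed FPKM was 16.6, 33.8 and 32.5 in controls and 36.04, 23.02 and 30.2 after transport, so the groups overlapped widely, with means of 27.6 ± 9.59 and 29.8 ± 6.53 FPKM (SD, n = 3 each). Within that sum, LOC113634822 alone had means of 13.2 FPKM in controls and 11.4 FPKM after transport. All 14 genes together came to 58.5 ± 17.1 FPKM in controls and 49.0 ± 8.40 FPKM after transport. Of the 12 other genes, 8 passed the filter on mean FPKM. None of these 8 had an adjusted p under 0.05 or an unadjusted p under 0.05 in edgeR, beside 0.617% and 16.9% of all tested genes. DESeq2 and limma called none of the 8 either, beside 9.51% and 0.741% of all tested genes. Their log2 fold changes ran from -0.61 to 0.46 with a median of 0.10, beside a median of -0.02 over all tested genes. Positive estimates were found for 5 and negative ones for 3, and that of LOC113634866 turned positive (0.12) without TMM factors. In none of the 8 did the groups separate by FPKM, beside 27.8% of all tested genes for either direction.

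Among the NLRP12-like relatives, LOC113634822 was the nearest in level to LOC113636435. It was at 7.52, 17.97 and 14.2 FPKM in controls and at 13.5, 9.49 and 11.2 FPKM after transport. The groups overlapped, and the log2 fold change was -0.49 with a standard error of 0.22 (edgeR, adjusted p = 0.318). Within libraries, LOC113636435 stood at 2.89, 1.93 and 2.41 times the FPKM of LOC113634822 in controls and at 1.30, 1.64 and 1.61 times after transport. The remaining NLRP12-like genes were lower and had estimates at or above 0, which for LOC113636338 turned negative without control 1 or transport 3. LOC113635243 was estimated at 0.46 ± 0.35 (log2 fold change ± standard error), LOC113634385 at 0.34 ± 0.41 and LOC113636338 at 0.03 ± 0.29. When the counts of all genes described with NACHT, LRR and PYD domains were summed, the log2 fold change was -0.85, against -1.12 for LOC113636435 alone.

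Among the NLRC3-like relatives, LOC113635310 and LOC113635619 had more RNA per length than LOC113635287 in every control library. LOC113635310, which shares the scaffold of LOC113635287, was at 1.74, 4.26 and 4.03 FPKM in controls and at 4.91, 2.93 and 5.83 FPKM after transport. The groups overlapped, and the estimate was 0.18 ± 0.31 (log2 fold change ± standard error). LOC113635287 reached 0.251, 0.144 and 0.205 times its FPKM in controls and 0.587, 0.448 and 0.413 times after transport, so this ratio within libraries moved with the member. LOC113635619 had means of 3.13 ± 1.20 and 4.63 ± 1.14 FPKM (SD, n = 3 each), with an estimate of 0.27 ± 0.25, and LOC113634866 had one of -0.16 ± 0.29. LOC113634386, whose transcripts are described both as NLRP3-like and as NLRC3-like, was at 3.93, 0.568 and 2.42 FPKM after transport and at 2.02, 3.03 and 3.40 FPKM in controls. Its transport libraries ranged beyond the controls on both sides, and its log2 fold change of -0.61 had a standard error of 0.59.

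The interval of each of these estimates is wide, so a difference in them is not excluded by the missed threshold. Summing the counts of all genes described as NLRC3-like gave a log2 fold change of 0.08, where LOC113635287 alone had 1.51. Near-identical copies can share reads, and no source used here says how reads matching several copies were counted, so the values of single copies are uncertain to that extent.

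**Figure D3:**
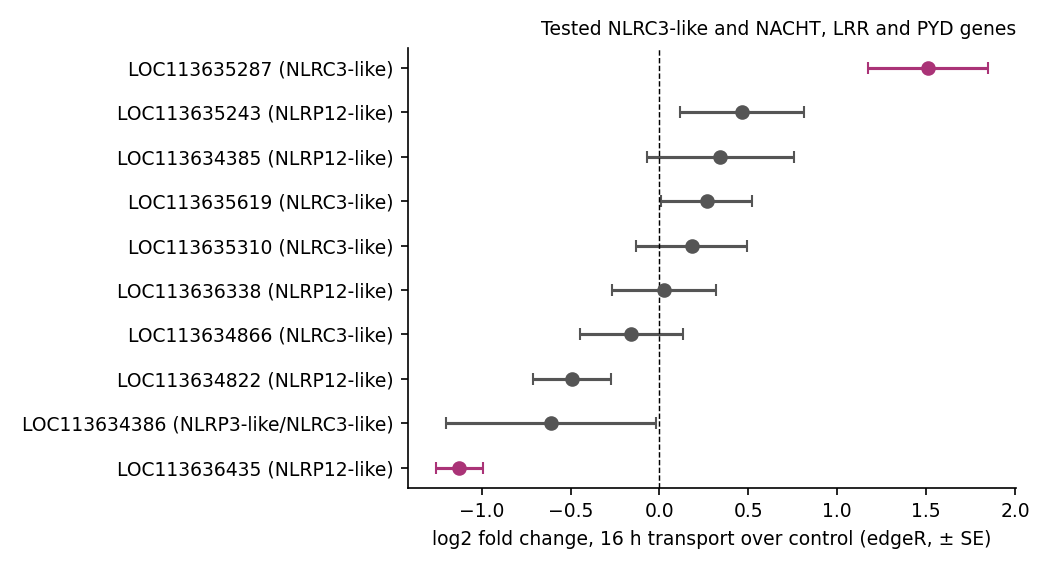
Log2 fold change (16 h transport over control, edgeR, TMM scale) with its standard error for the 10 tested NLRC3-like and NACHT, LRR and PYD genes; purple marks LOC113635287 at the top (1.51) and LOC113636435 at the bottom (-1.12), which were chosen for these values. The 8 others lie between -0.61 and 0.46.

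Of the 4 family genes that did not pass the filter, 3 had few or no reads. The fourth, LOC113634405, an NLRC3-like gene, had 104, 98 and 152 counts in controls and 84, 25 and 64 after transport. It was at 0.387, 0.455 and 0.650 FPKM in controls and at 0.380, 0.102 and 0.244 FPKM after transport. Every transport library was below the controls, as in 3.7% of the tested genes, but transport 1 only just below control 1. LOC113635304 had 24 and 4 counts in transport 1 and 2 and none elsewhere, and LOC113635301 had 8 counts in each of transport 2 and 3 and none elsewhere. LOC113636617 had no counts in any library. LOC113635304 and LOC113635301 lie on scaffold NW_020848189.1 with LOC113635287 and LOC113635310, which thus holds 4 family genes among its 17 genes in the table.

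Neighbouring genes were examined because a long gene can share reads with what overlaps it. The last 2455 bases of the LOC113636435 span, at its 5′ end, overlap LOC113636445 on the opposite strand. The overlapping gene had 4 counts in control 3, 4 in transport 1, 16 in transport 2 and none elsewhere, against at least 4733 in each library for LOC113636435. No source used here says whether counting used strand, so reads of the 2 genes in the overlap cannot be told apart. On the same strand, rpl29, a protein of the large ribosomal subunit, lies 216 bases away and was at 993 ± 131 FPKM in controls and 939 ± 77.8 FPKM after transport (SD, n = 3 each). Its log2 fold change was -0.46 with a standard error of 0.28 (edgeR, adjusted p = 0.443). The 6 other tested genes of this scaffold had log2 fold changes from -1.56 to 1.12, 2 of them positive and 4 negative, and 1 had an unadjusted p under 0.05. On the other side, 9111 bases away, LOC113636440 (RING finger protein 175) had 86 counts in control 1 and none elsewhere.

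Beside LOC113635287, the nearest gene was LOC113635303, a non-coding record described as ribonuclease inhibitor-like, 2462 bases away on the same strand. It had 33, 8 and 0 counts in controls and 79, 69 and 81 counts after transport. Its groups did not overlap, as in 24.1% of all tested genes for this direction, and its log2 fold change of 2.00 had a standard error of 1.20 (edgeR, adjusted p = 0.430). The 3 other tested genes of this scaffold, LOC113635303 and LOC113635310 among them, had estimates from 0.18 to 2.00. Their median was 1.78, beside 1.51 for LOC113635287, and none of the 3 had an unadjusted p under 0.05 in edgeR. On the other side, LOC113635310 lies 43552 bases away on the opposite strand.

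The NOD-like receptor signalling pathway, as the KEGG column of the table assigns it, held 40 genes besides the members, of which 32 were tested. None had an adjusted p under 0.05 in edgeR. At an unadjusted p under 0.05 in edgeR 7 were lower and 0 higher after transport, beside 9.14% of all tested genes for lower and 7.72% for higher, and DESeq2 called 6 of them lower, where it called 5.12% of all tested genes lower. Limma called 0 of them, where it called 0.123% of all tested genes lower. The median log2 fold change of the 32 was -0.06, with 14 positive and 18 negative estimates. By FPKM, every transport library was below the controls in 5 and above them in 3, beside 3.7% and 24.1% of all tested genes. The 3 above were LOC113634812, LOC113634850 (RhoA-B) and LOC113636633. Their log2 fold changes on the TMM scale were -0.02, -0.09 and 1.48. The genes at an unadjusted p under 0.05 were 3 interleukin-1 beta-like genes, nfkbia, birc2, tp53bp1 and 1 of 5 kinases and adaptors downstream of NOD receptors.

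The 7 tested sensors, which also carry K20865, and the 3 other tested genes with that entry did not reach that threshold. Of the latter, LOC113634793, described as ribonuclease inhibitor-like, was at 8.30 ± 2.92 FPKM in controls and 10.8 ± 0.205 FPKM after transport (SD, n = 3 each). Its log2 fold change was 0.11 with a standard error of 0.16.

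Downstream of the receptors, LOC113636462 (RIPK2-like), the kinase that relays NOD signals in mammals, was at 1.64, 1.71 and 1.79 FPKM in controls and at 1.08, 0.677 and 0.833 FPKM after transport. The groups did not overlap, as in 3.7% of all tested genes for this direction. The log2 fold change was -1.34 with a standard error of 0.31 (edgeR, adjusted p = 0.131). DESeq2 gave this gene an adjusted p of 0.00101. The other kinases and adaptors of this level did not reach an unadjusted p of 0.05. Among them traf6, a ubiquitin ligase on the route to NF-kB, was estimated at 0.30 ± 0.18 (log2 fold change ± standard error) and chuk, a subunit of the IKK kinase, at 0.17 ± 0.23.

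The gene nfkbia encodes the inhibitor that holds NF-kB in the cytosol. It was at 111, 293 and 397 FPKM in controls and at 81.4, 80.1 and 77.6 FPKM after transport. All transport libraries were close together and below the lowest control, as in 3.7% of all tested genes. The log2 fold change was -1.97 with a standard error of 0.32 (edgeR, adjusted p = 0.0644). It passed the adjusted threshold without control 1 (log2 fold change -2.24) and without control 3 (-1.69), the fit that called the most genes over all when a library was left out. The gene birc2, a ubiquitin ligase of the IAP group, had a log2 fold change of -0.49 with a standard error of 0.15 (edgeR, adjusted p = 0.210), and its relative xiap one of 0.01 ± 0.14. The p65-like NF-kB subunit LOC113635428 stood at 0.08 ± 0.16. The NF-kB subunit genes rel and relb, which the table does not assign to this pathway, stood lower, at -0.94 ± 0.24 and -1.06 ± 0.25. Their adjusted p was 0.159 and 0.131 (edgeR).

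Interleukin-1 beta, a protein that inflammasomes mature, is represented here by the RNA of 3 genes of scaffold NW_020848181.1. LOC113635105 was at 1.78, 3.04 and 9.29 FPKM in controls and at 0.285, 1.10 and 0.328 FPKM after transport, which came to -3.19 ± 0.79 (log2 fold change ± standard error). LOC113635103 came to -2.31 ± 0.52 and LOC113635102 to -1.85 ± 0.62, and control 3 was the highest library of all 3 genes. Each of the 3 was lower in every transport library than in any control, as were 3.7% of all tested genes. In the order named, unadjusted p was 0.00575, 0.00371 and 0.0228 and adjusted p was 0.143, 0.128 and 0.219 (edgeR). They lie close together and are close copies by description, so they are not independent of one another. The TNF-like gene LOC113634667, another cytokine of the pathway, did not reach that threshold and was estimated at -0.12 ± 0.51, or 0.11 without TMM factors.

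Of the genes tied to mitochondria, dnm1l, a GTPase of mitochondrial division, was estimated at -0.35 ± 0.27 (log2 fold change ± standard error). LOC113634812, a voltage-dependent anion channel 2-like gene of the outer mitochondrial membrane, was at -0.02 ± 0.16, or 0.30 without TMM factors.

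Caspases are proteases, of which inflammasomes activate some, and those tested showed estimates on both sides. The caspase-8-like genes LOC113634469 and LOC113634470 were estimated at 0.13 ± 0.16 and -0.34 ± 0.20 (log2 fold change ± standard error). LOC113635166, caspase-4-like, was at 2.81, 2.99 and 13.5 FPKM in controls and at 14.1, 10.5 and 11.4 FPKM after transport. Control 3 lay among the transport libraries, and the estimate was 0.69 ± 0.53. It was 1.58 without control 3, its highest control, where the gene passed the adjusted threshold in edgeR. Of the fits with a library left out, that one called the most genes over all. LOC113636633, a MORC3-like gene that the table also assigns to this pathway, was at 1.48 ± 0.92. This became 3.50 and passed the threshold without control 2, its highest control. Both genes were named after their values were seen. The gene tp53bp1, known for DNA damage repair, was at -0.66 ± 0.22 (edgeR adjusted p = 0.210).

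**Figure D4:**
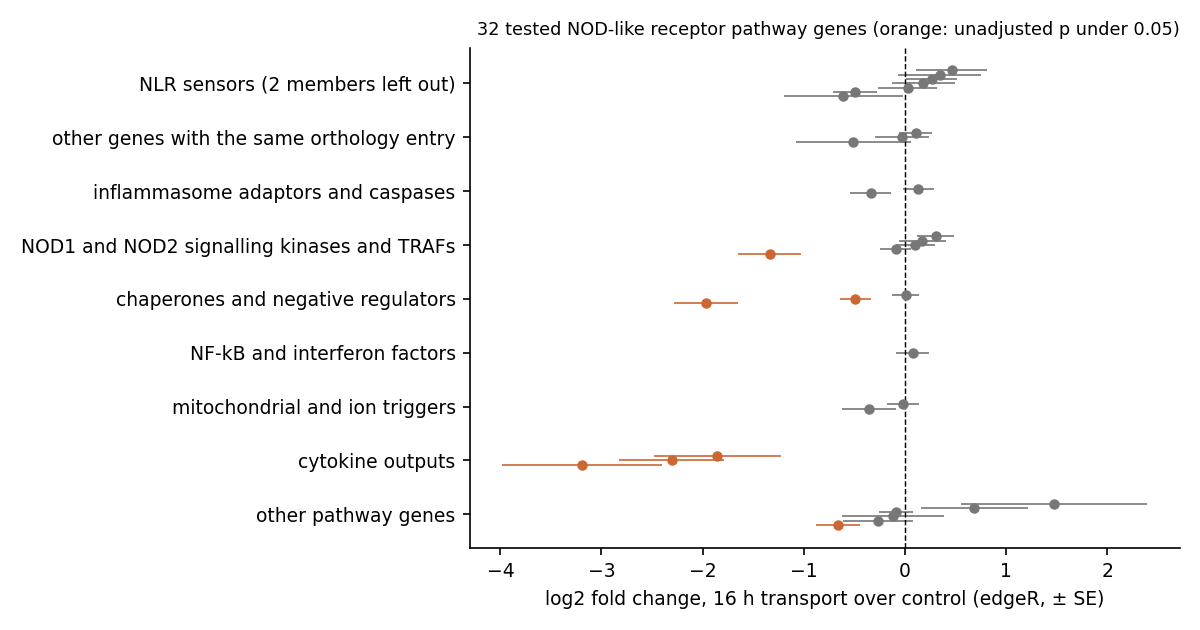
Log2 fold change (16 h transport over control, edgeR, TMM scale) with its standard error for the 32 tested NOD-like receptor pathway genes besides the members, by role; orange marks an unadjusted p under 0.05. The 7 orange genes all lie below 0, from -3.19 to -0.49, and the 7 tested sensors lie between -0.61 and 0.46 with none in orange.

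Other genes followed the members across the 6 libraries, and these are descriptions, since the members were chosen for a group difference and the libraries share depth and composition. By Pearson's r of log2(FPKM + 0.5), the 5 genes most like LOC113636435 among 1619 were LOC113636173 (actin filament-associated protein 1-like 1, r = 0.976), nfkbia (0.973), LOC113634488 (mitotic-spindle organizing protein 2-like, 0.971), cd63 (a tetraspanin, 0.962) and LOC113635217 (a non-coding record, 0.962). On log2 CPM with TMM factors these values were 0.985, 0.938, 0.949, 0.899 and 0.971. In all, 15 genes reached an r of 0.9 with LOC113636435 on the FPKM scale and 44 on the TMM scale.

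For LOC113635287 the 5 were tmem168 (a transmembrane protein, r = 0.999), naprt (an enzyme of NAD synthesis, 0.992), prrt1 (0.990), pigo (an enzyme of GPI anchor synthesis, 0.987) and LOC113635983 (a proton-coupled amino acid transporter-like gene, 0.987). An r of 0.9 was reached by 143 genes on the FPKM scale and 64 on the TMM scale. The order rests on the scale here, since tmem168 had an r of 0.790, naprt of 0.808 and LOC113635983 of 0.711 with TMM factors, where prrt1 kept 0.988. Between the members themselves, r was -0.64 on the FPKM scale and -0.90 with TMM factors.

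Deviations from the group means show which genes varied with a member inside the groups. For LOC113636435 the 5 leading genes were LOC113636564, synrg, dnajb1, LOC113635106 and tgfbrap1, with r from 0.996 to 0.999 by FPKM, but 337 genes reached 0.9 there and 7 with TMM factors. For LOC113635287 they were tmem168, LOC113634622, naprt, LOC113636554 and LOC113635983, and 72 genes reached 0.9 by FPKM and 46 with TMM factors. The family gene LOC113634386 had an r of 0.975 with LOC113635287 in these deviations (0.955 with TMM factors), both being lowest within their group in transport 2. The members themselves had an r of 0.61 by FPKM and 0.25 with TMM factors.

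Some skin markers ordered the transport libraries as LOC113635287 did. The FPKM of evpl, given above, and of LOC113635236, a mucin-2-like gene, was highest in transport 1, then 3, then 2, as was that of LOC113635287. Among controls evpl shared its order too, and LOC113635236 did not. These are orders by FPKM, and the TMM factors of the libraries had the same order as LOC113635287 in both groups. With TMM factors LOC113635287 was at 3.38, 3.34 and 4.19 CPM in controls 1, 2 and 3. Among controls evpl, at 62.6, 134 and 204 CPM, then no longer shared its order. LOC113635236 was at 0.0384, 0 and 0.0223 FPKM in controls and at 8.59, 0.347 and 5.66 FPKM after transport. The pigment cell gene tyrp1, an enzyme of melanin synthesis, ran the other way, with 6.17, 4.80 and 2.07 FPKM in controls and 0.511, 1.48 and 0.828 FPKM after transport. The other pigment cell gene tested, mlph, overlapped between groups, at 1.54 to 2.33 FPKM in controls and 1.04 to 1.73 FPKM after transport. Its r with LOC113635287 was -0.845 by FPKM and -0.912 with TMM factors. Over the 6 libraries the r with LOC113635287 by FPKM was 0.911 for evpl, 0.949 for LOC113635236 and -0.97 for tyrp1. With TMM factors these were 0.887, 0.948 and -0.94. With LOC113636435 the r was -0.44 for evpl, -0.62 for LOC113635236 and 0.57 for tyrp1 by FPKM, and -0.82, -0.89 and 0.83 with TMM factors. Both members were chosen for a group difference, so r with markers that differ between groups largely follows from that choice. In deviations from the group means, LOC113636435 had 0.936, 0.242 and -0.659 by FPKM, and 0.371, -0.234 and -0.187 with TMM factors. LOC113635287 had 0.692, 0.874 and -0.861 there by FPKM, and 0.513, 0.748 and -0.783 with TMM factors. By edgeR, unadjusted p was 0.00944, 0.00219 and 0.00697 for evpl, LOC113635236 and tyrp1, with log2 fold changes of 1.54, 7.28 and -2.61 and adjusted p of 0.173, 0.101 and 0.159. The other mucous cell genes tested, agr2 and muc15, overlapped between groups, as agr2 did at 61.1 to 204 FPKM in controls and 97.1 to 172 FPKM after transport. By FPKM agr2 shared the library order of LOC113635287 in both groups, but with TMM factors among transport libraries only. Its r was 0.624 by FPKM and 0.371 with TMM factors. The leukocyte marker spi1 shared it among transport libraries only, with an r of 0.869 by FPKM and 0.549 with TMM factors. The order of muc15 differed in both groups. Genes taken by name as skeletal muscle markers, 8 of 10 tested, include some described as cardiac or smooth muscle-like. Tenascin-N, which was not tested, was also matched by name. The tested genes summed to 2251 to 11055 FPKM in controls, with the highest sum in control 1, and to 2433 to 4430 FPKM after transport. LOC113636033, a skeletal myosin regulatory light chain 2-like gene, alone held 9075 FPKM in control 1. Log2 fold changes were positive for 3 of the 8 and negative for 5. The part of these markers in the values of both genes was not tested.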

How the data were processed

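Skin poly(A) RNA of 3 control and 3 transport libraries was sequenced as paired reads. The authors used Cutadapt for trimming, HISAT for alignment, StringTie for assembly and FPKM, and edgeR. No source used here gives versions, strandedness or the genome build. A human genome is named in the methods and a yellow catfish genome in the results of the paper, while scaffold names in the table are those of Tachysurus fulvidraco. The deposited table holds raw read counts for each gene, and the deposited FPKM values come from StringTie. Coordinates are given as in the table, which had 2452 rows, of which 1 was incomplete and dropped, and 12 columns of per-sample values name samples not mapped here and were not used.

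Genes were kept where the mean FPKM reached 0.5, and the counts of these 1620 were fitted with edgeR 4.0.16 in R 4.3.3 (quasi-likelihood, TMM factors, condition only, mapped reads stated in the paper as library sizes), with Benjamini-Hochberg adjustment over all of them. The edgeR standard errors are the absolute log2 fold change divided by the square root of the F statistic of that test. For the members they are a description, not a test. DESeq2 1.42.0, limma 3.58.1 on log2(FPKM + 0.5) or (FPKM + 0.1), other scaling and filters, a replicate block, summed copies and leaving out each library were alternatives. The fit was tested on simulated data. Libraries of a group differed by a chi-square per gene of 38.5 to 572, so none was a duplicate.

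The 2 members and all gene lists were chosen with earlier results of these data known. The family holds descriptions that spell NLRC3 out (12 genes besides the members, 8 tested); with only the letters NLRC3, or NACHT, LRR and PYD, it would hold 7, of which 5 were tested. Named are the members, every tested family gene, up to 4 tested genes with the smallest p in each role list, as far as the table assigns them to the pathway, the nearest gene on each side, and the 5 genes most like each member. Untested family genes, overlapping genes, markers, LOC113634793, LOC113634667, LOC113634850, LOC113635166, LOC113636633, rel, relb and tp53bp1 were named after their values were seen. The likeness on the TMM scale was added after seeing the data. Plots were drawn with matplotlib 3.10.9.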

Additional observations from a re-analysis of the deposited data

How the results depend on the processing

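The sign of the log2 fold change of LOC113636435 and of LOC113635287 was the same in all 16 alternatives. These reuse the libraries in which the genes were chosen for this difference, so the shared sign is no support for it. Summed copies, among these alternatives, put the sum of all genes described alike in place of the gene. Leaving out each library in turn gave -1.16 to -1.07 and 1.31 to 1.76 on the log2 scale. The log2 fold change of LOC113636435 was -0.83 without TMM factors, -0.78 in limma and -0.80 in limma with a pseudocount of 0.1. The summed genes with NACHT, LRR and PYD domains had -0.85. The summed NLRC3-like genes had 0.081 with a standard error of 0.249, so the sign of that sum is not settled. Neither sum is an estimate of a member alone. No further family gene was called under any setting, an unadjusted p under 0.05 included. Pathway genes called, 0 in edgeR, were 6 in DESeq2, 7 at an unadjusted p under 0.05 and 0 to 2 when a library was left out. Over all genes, 10 were called, 154 in DESeq2, 273 at an unadjusted p under 0.05 and 0 to 65 without a library (65 without control 3). The estimate of LOC113635310 ran from -0.029 to 0.40 when a library was left out (-0.014 without control 1, lowest without transport 3), and that of LOC113636338 from -0.18 to 0.21 (lowest without control 1, -0.063 without transport 3). For LOC113634866 it was 0.12 without TMM factors, 0.12 in limma, 0.16 with a pseudocount of 0.1 and -0.27 to 0.010 when a library was left out (highest without control 3). For LOC113634470 it was 0.0024 and 0.0060 in limma with a pseudocount of 0.5 and 0.1, and for LOC113635428 it ran from -0.0041 (without transport 1) to 0.19. With a library left out, xiap ran from -0.058 to 0.056, LOC113634793 from -0.015 to 0.21, LOC113634667 from -0.41 to 0.24 and LOC113634812 from -0.13 to 0.065. Without TMM factors, in limma and in limma with a pseudocount of 0.1, LOC113634667 stood at 0.11, 0.11 and 0.22 and LOC113634812 at 0.30, 0.30 and 0.31, and dnm1l was at 0.022 and 0.024 in both limma fits. The causes were not tested. A replicate block gave -1.12 and 1.46 for the 2 genes, with 0 genes called. Replicate numbers are not stated to pair libraries, and deviations of same-numbered libraries correlated at -0.07, 0.08 and 0.08, replicate 2 alone matching best with its own number. With 3 libraries a group, low counts such as the 86 to 143 control reads of LOC113635287 limit precision.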
